A study of Mus musculus with 6 samples.

Results

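The aryl hydrocarbon receptor gene Ahr, its partner Arnt, its repressor Ahrr and 3 of its best known target genes, Cyp1b1, Cyp1a1 and Tiparp, were followed in cultured mouse skin fibroblasts (MSFs). These 6 genes were found by their symbols among the 22162 genes of the table, each in 1 row. The set was chosen on the rise of Cyp1b1 in the comparison described here, so the differences of all 6 between the groups are given as a description, with no p-value. The cells were a line from the dorsal skin of 1 female FASST mouse on an FVB/N background. FASST mice carry a Cre-ERT2 recombinase driven by a regulatory sequence of the pro-alpha 2(I) collagen gene and a lox-stop-lox p27Kip1 allele at ROSA26, so that both groups carry both transgenes. The 3 TAM libraries, labelled senescent, came from cells given 10 µM tamoxifen (TAM), with 48 h stated for senescence induction, and the 3 EtOH libraries, labelled non-senescent, from cells given the ethanol vehicle, all kept at 3% oxygen. The time of harvest for sequencing and the age of the mouse are not given in the sources used here. Tamoxifen itself and the p27Kip1 allele that it activates cannot be told apart in this design, and p-values measure the spread between cultures of 1 line only.

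AhR is a transcription factor of the bHLH-PAS family that waits in the cytoplasm with HSP90 until it binds a small molecule, such as a dioxin, a polycyclic hydrocarbon or a tryptophan metabolite. It then enters the nucleus, pairs with ARNT and binds short DNA motifs beside genes of foreign-compound metabolism. ARNT is also the partner of the hypoxia-inducible factors (HIFs). AHRR competes with AhR for ARNT, and TIPARP, an ADP-ribosyltransferase, is induced by AhR and dampens it. CYP1A1 and CYP1B1 are monooxygenases that oxidise hydrocarbons and estrogens, CYP1A1 being the usual readout in epithelium and liver and CYP1B1 the form known from fibroblasts and other mesenchymal cells.

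The motif that AhR and ARNT bind has the core GCGTG, and with 2 more letters on its left it reads TNGCGTG. The core is also a form of the motif that HIFs bind, so a match does not tell the factors apart. In the 2000 bases before the start site in mm9, Cyp1b1 and Cyp1a1 each held 12 core matches on both strands together, a number reached in 0.117% of the 22128 windows scanned, whose median was 1. Cyp1a1 held 7 of the longer matches, which no other window did, and Cyp1b1 held 3, reached in 0.262% of windows. Ahrr held 6 core matches, Tiparp 7 and Arnt 1, and the longer motif matched 2 times, 1 time and 0 times. At least 1 core match was present in 69.1% of windows and at least 1 longer match in 19.2%. In the 250 bases before the RefSeq start sites of GRCm38, where 28.2% of 32851 promoters held the core, Ahrr held 3 matches and Cyp1b1, Cyp1a1, Arnt and Tiparp held 1 each. Ahr was not among the promoters used here. The letters come from the reference genome, not from FVB/N, and a match is not a bound site.

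**Figure D1:**
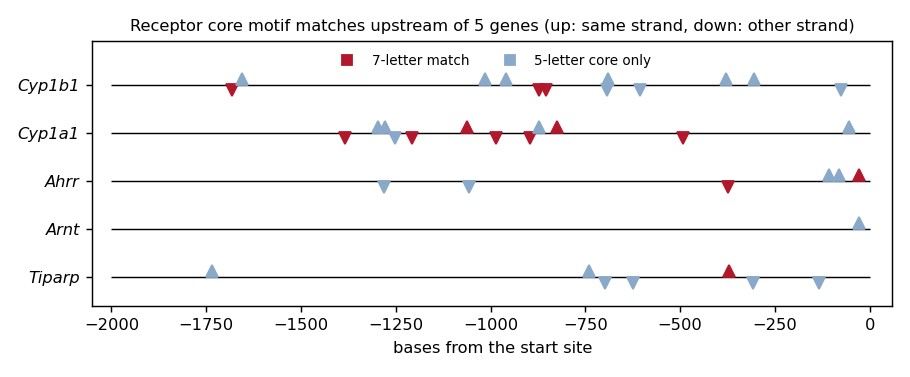
Positions of the core motif in the 2000 bases before the mm9 start site of 5 genes, with the distance from the start site in bases on the horizontal axis. Triangles pointing up are on the strand of the gene and those pointing down on the other, and the longer match is in red. Cyp1b1 and Cyp1a1 each carry 12 matches, Arnt 1.

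Stretches that hold many matches in a short length, with the longer motif given extra weight, are shown for Cyp1b1, which was higher in the TAM libraries, for Cyp1a1, which was listed at 0, and for the repressor Ahrr. Each is read 5′ to 3′ on the strand of the gene, with the core in capitals (CACGC is the core on the other strand). The stretch of Cyp1b1 is chr17:80115241-80115426 of mm9, minus strand, from 1025 to 840 bases before the start site. That of Cyp1a1 is chr9:57544424-57544610, plus strand, from 996 to 810 bases before the start, and that of Ahrr is chr13:74429792-74429896, minus strand, from 117 to 13 bases before it.
Cyp1b1: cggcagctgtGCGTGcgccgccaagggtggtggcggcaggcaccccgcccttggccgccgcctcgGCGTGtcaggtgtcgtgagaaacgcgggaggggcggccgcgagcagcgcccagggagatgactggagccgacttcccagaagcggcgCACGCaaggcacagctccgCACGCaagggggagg
Cyp1a1: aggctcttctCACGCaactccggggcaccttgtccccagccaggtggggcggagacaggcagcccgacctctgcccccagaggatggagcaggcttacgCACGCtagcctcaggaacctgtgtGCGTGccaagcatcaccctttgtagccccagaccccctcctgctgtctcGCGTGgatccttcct
Ahrr: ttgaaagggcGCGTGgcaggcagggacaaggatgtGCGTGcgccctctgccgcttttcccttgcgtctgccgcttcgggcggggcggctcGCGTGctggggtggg
The stretch of Cyp1b1 holds 4 core matches, of which 2 are the longer match, and that of Cyp1a1 holds 4, of which 3 are. Ahrr has 3 within its stretch, 1 of them the longer match.

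Values are the authors' normalized counts. They summed to between 14952367 and 17314953 per library, and 16.2 normalized counts were taken as 1 c.p.m. The smallest values above 0 were between 0.36 and 0.89 by library. Low values did not all lie on even steps. In TAM replicate 1, where the smallest was 0.42, Cyp2d10 was at 0.7, Cyp2d26 at 0.77 and Cyp2c65 at 0.79. A single worth of a read can thus not be given for that library. In TAM replicate 2 low values lay on steps of 0.838 normalized counts, which gives that library about 19397852 reads; the read numbers of the others are unknown. The 10 marker genes of fibroblasts were present in every library. Their summed level was between 1531767 and 1680762 normalized counts in the EtOH libraries and between 684994 and 1127539 in the TAM libraries. Most of it came from Col1a1, Col1a2 and Col3a1. These collagens, Dcn, Lum and Fap were lower in every TAM library than in any EtOH library. Pdgfra, Pdgfrb and Vim overlapped between the groups, and Thy1 was higher, at 1036, 2165 and 571 against 2366, 4122 and 2246. For the 6 endothelial markers the summed level was 85.8 to 241 in the EtOH and 15.7 to 35.1 in the TAM libraries. Most of that difference was in Kdr, at 205, 68.7 and 116 against 4.84, 7.53 and 14.0. Cldn5 was at 0. Pecam1, at 4.65, 4.76 and 3.49 against 2.83, 6.69 and 11.3, and Cdh5, at 0, 4.8 and 0 against 0, 4.18 and 0.54, overlapped. The sums of the 5 smooth muscle and pericyte markers were 17804 to 56654 against 27118 to 108649. Among these markers, Myh11 (227, 94.4 and 163 against 523, 1568 and 479) and Cnn1 (856, 523 and 551 against 1080, 6645 and 1749) were higher in every TAM library. Acta2, Cspg4 and Rgs5 overlapped. The sums of the 9 keratinocyte markers (81.1 to 96.6 against 75.8 to 131, Krt1 at 0) and the 7 macrophage markers (203 to 527 against 366 to 548, Emr1 at 0) overlapped between the groups. So did those of the 5 melanocyte markers (134 to 255 against 140 to 190) and the 4 adipocyte markers (0.76 to 0.95 against 0.79 to 1.51, Lep at 0). Single markers could still separate. Lyz2 (46.8, 35.25 and 62.9 against 103, 143 and 159) and Csf1r (75.7, 73.4 and 74.3 against 113, 226 and 90.6) were higher in every TAM library. Krt5 and Itgam were too, at low values, and Trp63 was lower (25.1, 25.8 and 24.9 against 7.15, 2.5 and 6.87). The part of these cell types in the results was not tested, and fewer cells of a type and less RNA per cell cannot be told apart in bulk RNA. Cdkn1b, the mouse gene for p27Kip1, was at 1427, 3074 and 1853 normalized counts in EtOH replicates 1, 2 and 3 and at 1699, 1520 and 1630 in the TAM libraries, so its row did not separate the groups. Whether reads of the transgene were counted there is not given in the sources used here.

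EtOH replicate 2 stood apart in the targets of the HIFs, the other factors that pair with ARNT. Of the 24 HIF target genes tested, 22 were highest of all 6 libraries there, where 2914 of all 11877 genes tested were. The median ratio of EtOH replicate 2 to the mean of EtOH replicates 1 and 3 was 6.03 over this list and 0.982 over all genes tested. The glucose transporter gene Slc2a1 was at 12302 normalized counts in that library against 612 and 608 in the other EtOH libraries, and at 1177, 2271 and 1045 in the TAM libraries. Egln3, an oxygen-sensing prolyl hydroxylase induced by HIFs, was at 2904 against 48.2 and 65.4, and at 93.4, 97.2 and 82.4 in the TAM libraries. For the 5 receptor genes above the filter on low values and for the median of each gene list, the value without this library is given as well where one could be had.

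Cyp1b1 (ENSMUSG00000024087; chromosome 17 of mm9, 80106234 to 80114401, minus strand, 3 exon blocks) was at 115, 41.0 and 6.05 normalized counts in EtOH replicates 1, 2 and 3. In TAM replicates 1, 2 and 3 it was at 1668, 439.9 and 440.7. All 3 TAM values were above all 3 EtOH values, and the lowest TAM value was well clear of the highest EtOH value. Within each group the libraries differed widely, with replicate 1 the highest in both. In TAM replicate 2 its value stands for 525 reads (exact Poisson 95% interval 481 to 572, counting error only).

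The mean of Cyp1b1 was 54.1 ± 55.9 normalized counts (SD, n = 3) in the EtOH libraries. In the TAM libraries it was 849.5 ± 708.7 (SD, n = 3), which is 15.7 times as high. The log2 fold change, the difference of the mean log2(normalized counts + 1), was 4.40 (standard error 1.02), or 0.53 once the replicate number entered as a block. In the same-numbered pairs the log2 differences were 3.84, 3.39 and 5.97. The largest came from replicate 3, whose EtOH value of 6.05 rests on few reads. Leaving out single libraries gave between 3.30 and 5.32, and the log2 fold change was 4.58 without EtOH replicate 2. By size of rise Cyp1b1 was number 8 of the 11877 genes tested, a place given as a description since the rise chose the set.

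Cyp1a1 (ENSMUSG00000032315; chromosome 9, 57545420 to 57551629) was listed at 0 in all 6 libraries. It had 0 reads in TAM replicate 2, and a count of 0 was taken to allow up to 3 reads, or 2.51 normalized counts (the exact Poisson 95% interval reaches 3.69 reads). Its neighbour in the CYP1 family, Cyp1a2, another AhR target best known from liver, was also listed at 0 in all 6. In all, 4829 genes were listed at 0 throughout. The TAM libraries with 439.9 to 1668 normalized counts of Cyp1b1 thus held no listed Cyp1a1. The upstream windows of both genes carry 12 core matches, with 7 longer matches for Cyp1a1 and 3 for Cyp1b1. Whether the matches bear on the levels was not tested.

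**Figure D2:**
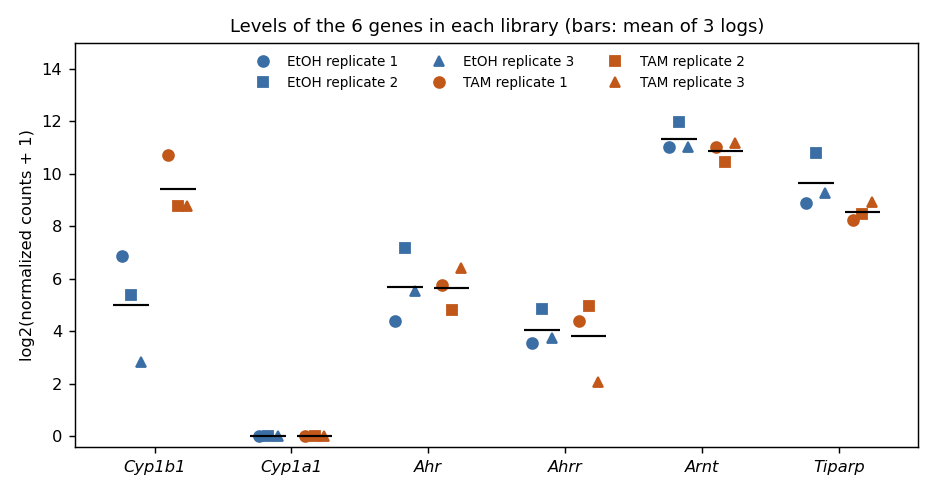
Level of each of the 6 genes on the vertical axis as log2(normalized counts + 1), in EtOH libraries (blue) and TAM libraries (orange), with replicates 1, 2 and 3 as circles, squares and triangles and the mean of the 3 logs as a bar. The groups are separate for Cyp1b1, from 6.05 to 115 against 439.9 to 1668 normalized counts, while Ahr, Ahrr, Arnt and Tiparp overlap and Cyp1a1 is at 0.

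The receptor gene Ahr (ENSMUSG00000019256; chromosome 12, 36182651 to 36219661) was at 20.1, 145 and 45.1 normalized counts in EtOH replicates 1, 2 and 3 and at 52.8, 26.8 and 84.6 in TAM replicates 1, 2 and 3. The groups overlapped over most of their range, with the highest and the lowest values both in EtOH libraries. Its log2 fold change was −0.05 (standard error 0.75). The pairs went in different directions, with log2 differences of 1.35, −2.39 and 0.89. Without EtOH replicate 2, the library with the high HIF targets, the log2 fold change was 0.69, and without EtOH replicate 1 it was −0.70, so no direction can be given for Ahr. In TAM replicate 2 its value stands for 32 reads (exact Poisson 95% interval 21.9 to 45.2).

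Arnt (ENSMUSG00000015522; chromosome 3, 95238310 to 95295544), the partner of AhR and of the HIFs, was the most abundant of the 6 genes. It was at 2081, 3985 and 2071 normalized counts in EtOH replicates 1, 2 and 3 and at 2078, 1391 and 2344 in the TAM libraries. Apart from EtOH replicate 2 on the high side and TAM replicate 2 on the low side, the libraries were close to each other. The log2 fold change was −0.45 (standard error 0.32), with pair differences of −0.002, −1.52 and 0.18. Without EtOH replicate 2 it was −0.13.

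The repressor gene Ahrr (ENSMUSG00000021575; chromosome 13, 74348566 to 74429779) was low throughout. It was at 10.8, 27.7 and 12.4 normalized counts in the EtOH libraries and at 20.2, 30.2 and 3.26 in the TAM libraries. The highest and the lowest values were both in TAM libraries, and the groups overlapped. The log2 fold change was −0.23 (standard error 0.83), with pair differences of 0.85, 0.12 and −1.65, and it was 0.64 without TAM replicate 3. Without EtOH replicate 2 Ahrr did not pass the filter and has no value. The value of TAM replicate 2 stands for 36 reads (exact Poisson 95% interval 25.2 to 49.8).

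Tiparp (ENSMUSG00000034640; chromosome 3, 65332332 to 65359067), a target that AhR induces in many cell types, was at 472, 1798 and 618 normalized counts in EtOH replicates 1, 2 and 3. In TAM replicates 1, 2 and 3 it was at 303, 354 and 482. The TAM value was lower in all 3 same-numbered pairs, with log2 differences of −0.63, −2.34 and −0.36, but TAM replicate 3 was above EtOH replicate 1, so the groups overlapped. The log2 fold change was −1.11 (standard error 0.49, and 0.41 with the replicate block). Without EtOH replicate 2 it was −0.53. Tiparp thus lay on the other side of 0 from Cyp1b1 in every pair. A gene on the other strand, 4931440P22Rik, overlaps 5.6% of the exon bases of Tiparp, and Gm17436 overlaps 0.972% of those of Ahr. The strand setting of the counting is not given in the sources used here.

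**Figure D3:**
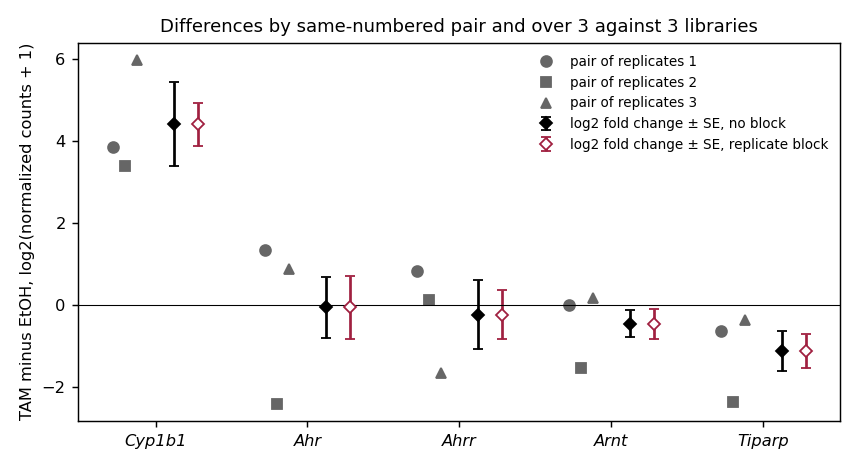
TAM minus EtOH on the vertical axis, in log2(normalized counts + 1), for the 5 genes above the filter on low values. Grey marks are the 3 same-numbered pairs, and diamonds are the log2 fold change over 3 against 3 libraries with its standard error, filled without and open with the replicate block. Only Cyp1b1 lies above 0 in all 3 pairs, at 3.39 to 5.97, and Tiparp lies below 0 in all 3.

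Of the 6 genes, 5 passed the filter of 1 c.p.m. in at least 3 libraries, Ahrr in just 3 libraries, and Cyp1a1 did not. At an adjusted p under 0.05 limma's moderated test called 0 of the 5 without the replicate block, where 0.244% of all genes tested were called. With the block it called 1, Cyp1b1, where 1.62% of all genes were. The groups did not overlap for 1 of the 5, again Cyp1b1, against 20.6% of all genes tested. These counts repeat the contrast that chose the set and are not evidence about it.

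The genes other than Cyp1a1 and Cyp1b1 had their highest EtOH values in EtOH replicate 2. In that library Ahr was 4.46 times, Tiparp 3.3 times, Ahrr 2.39 times and Arnt 1.92 times the mean of EtOH replicates 1 and 3, whereas Cyp1b1 was 0.674 times that mean. These ratios stand beside the median of 6.03 for the HIF targets in the same library. For the other AhR targets tested that median was 1.55, and 6 of 16 were highest of all 6 libraries there. It was 1.29 for the P450 genes, 1.22 for the NRF2 targets and 0.982 for all genes tested. The part of the HIF response in the ratios of the receptor genes was not tested.

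**Figure D4:**
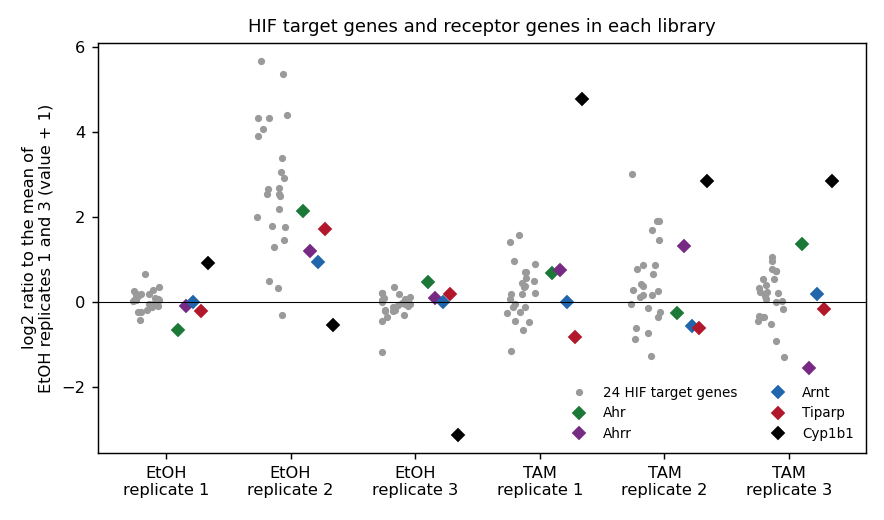
For each library, the log2 ratio to the mean of EtOH replicates 1 and 3 on the vertical axis, for the 24 HIF target genes tested (grey points) and for 5 receptor genes (diamonds). In EtOH replicate 2 the HIF targets reach a median ratio of 6.03 and Ahr, Ahrr, Arnt and Tiparp are all above 0, while Cyp1b1 is above 0 in the 3 TAM libraries and in EtOH replicate 1.

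To compare the genes with each other, normalized counts were divided by the exon bases of each gene in kb. In the EtOH libraries the order was Arnt, at 339 ± 138 (SD, n = 3) normalized counts per kb, Tiparp at 241.5 ± 182 (SD, n = 3), Ahr at 11.4 ± 10.7 (SD, n = 3), Cyp1b1 at 10.4 ± 10.7 (SD, n = 3), Ahrr at 1.82 ± 1.00 (SD, n = 3) and Cyp1a1 at 0. The ranges of Arnt and Tiparp overlapped, as did those of Ahr and Cyp1b1 and those of Cyp1b1 and Ahrr. Ahr lay below Tiparp and above Ahrr without overlap. In the TAM libraries Cyp1b1 stood second, at 163 ± 136 (SD, n = 3) normalized counts per kb, between Arnt at 242 ± 61.5 (SD, n = 3) and Tiparp at 95.3 ± 23.1 (SD, n = 3), with ranges that overlapped both. That place rested on TAM replicate 1, at 320.3 normalized counts per kb, since Cyp1b1 was below Tiparp in TAM replicate 2 (84.5 against 88.7) and in TAM replicate 3 (84.6 against 121). Ahr at 8.87 ± 4.69 (SD, n = 3) and Ahrr at 1.92 ± 1.46 (SD, n = 3) lay below them without overlap.

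Among the cytochrome P450 genes of these fibroblasts Cyp1b1 made up a larger share in the TAM libraries than in the EtOH libraries, a description since the rise chose it. The table holds 93 genes of the family, of which 40 were listed at 0 in every library and 22 passed the filter. Per kb of exon, Cyp1b1 made up 1.29%, 0.318% and 0.0513% of the summed P450 level in EtOH replicates 1, 2 and 3 and 17.3%, 4.19% and 3.73% in TAM replicates 1, 2 and 3. Its place in the family was 12, 19 and 29 in the EtOH libraries and 1, 7 and 10 in the TAM libraries. The genes with the highest mean level per kb were Cyp2d22, Cyp20a1, Cyp2f2, Cyp51 and Cyp4v3. Cyp51, an enzyme of cholesterol synthesis, was at 117 normalized counts per kb in the mean of the EtOH libraries and 219 in that of the TAM libraries, with overlapping groups. Cyp20a1, an orphan P450, was at 272 and 254 normalized counts per kb, and Cyp4v3, a fatty acid hydroxylase, at 155.5 and 115.

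**Figure D5:**
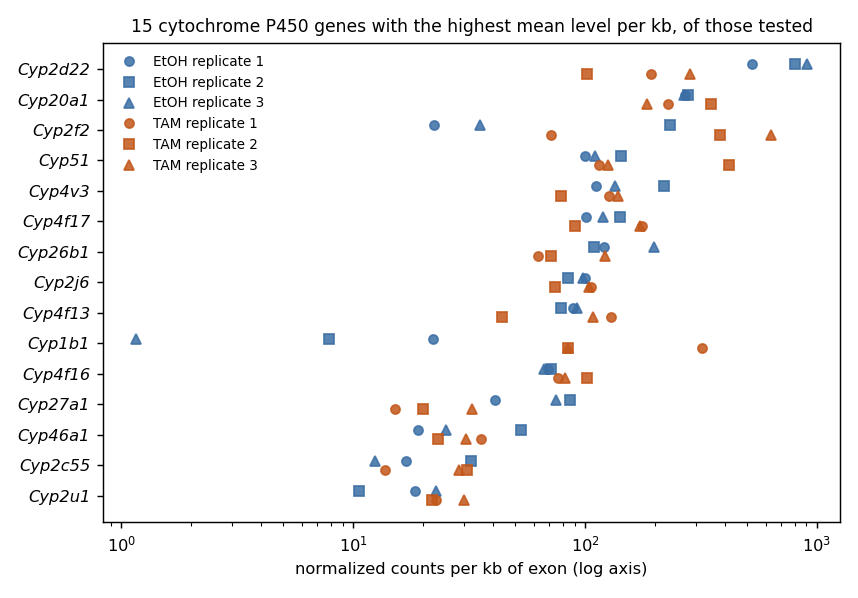
Normalized counts per kb of exon on a log axis for the 15 tested P450 genes with the highest mean level, in EtOH libraries (blue) and TAM libraries (orange), with replicates 1, 2 and 3 as circles, squares and triangles. Of the 15 genes Cyp1b1 has the widest ratio between group means, from a mean of 10.4 to 163 normalized counts per kb, while Cyp2d22 is lower in the 3 TAM libraries.

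Of the 21 P450 genes tested besides Cyp1b1, limma's moderated test called 0 without and 0 with the replicate block. Before adjustment, 0 were higher and 2 lower at p under 0.05 without the block, and 1 was higher and 3 were lower with it. Over all 11877 genes tested, 792 were higher and 796 lower before adjustment, 13.4% in all, and with the block 1026 and 988, or 17%. The unadjusted counts of this and the following lists are to be read beside these shares. Their median log2 fold change was −0.004, with 10 above 0 and 11 below, beside −0.03 for all genes tested, with 5487 above 0 and 6390 below. The median of the P450 genes was 0.30 without EtOH replicate 2 and 0.16 without TAM replicate 2. The largest differences were those of Cyp2f2, Cyp2d22 and Cyp27a1. Cyp2f2, a P450 best known from the airways, was at 45.0, 470.4 and 71.6 normalized counts in EtOH replicates 1, 2 and 3 and at 145, 773 and 1281 in the TAM libraries, which overlap. Cyp2d22 was at 1453, 2224 and 2506 in the EtOH libraries and at 531, 282 and 788 in the TAM libraries, a difference of −2.03 ± 0.39 (SE) on the log2 scale, at adjusted p = 0.114 by limma, or 0.0648 with pairs blocked. Cyp27a1, a sterol 27-hydroxylase, differed by −1.56 ± 0.41 (SE) on that scale, at adjusted p = 0.201 by limma, or 0.0851 with pairs blocked.

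The genes around the receptor were described from lists that hold none of the 6. Of 18 genes of the AhR complex, its coactivators and its PAS family relatives, 16 were tested. Without the block 0 were called. With the replicate block 2 were called, where 1.62% of all genes tested were: Epas1 rose and Ncoa1 fell. Before adjustment 1 was higher and 1 lower at p under 0.05, both without and with the block. Epas1 (ENSMUSG00000024140), which encodes HIF-2α, a partner of ARNT, was at 82.6, 32.4 and 45.0 normalized counts in EtOH replicates 1, 2 and 3 and at 505, 351 and 233 in the TAM libraries. All 3 TAM values were above the EtOH values, and EtOH replicate 2 had the lowest of all. Epas1 thus differed by 2.78 ± 0.42 (SE) on the log2 scale, at adjusted p = 0.0633 by limma, or ± 0.28 and 0.0274 with pairs blocked. Ncoa1, a coactivator of nuclear receptors, was at 961, 938 and 2484 normalized counts in the EtOH libraries and at 439.7, 365 and 771 in the TAM libraries. It differed by −1.39 ± 0.45 (SE) on the log2 scale, at adjusted p = 0.260 by limma, or ± 0.18 and 0.0429 with pairs blocked. The median log2 fold change of the list was 0.17, with 11 genes above 0 and 5 below, and it was 0.11 without EtOH replicate 2.

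The other known targets of AhR lay on both sides of 0. Of 25 listed, 24 were in the table and 16 were tested, with a median log2 fold change of 0.10, 9 above 0 and 7 below. The median was 0.23 without EtOH replicate 2, 0.29 without TAM replicate 2 and 0.04 without EtOH replicate 1. Without the block 0 were called, while before adjustment 2 were higher and 3 lower at p under 0.05. Before adjustment with the block, 5 were higher and 3 lower, where 17% of all genes tested passed in either direction. With the replicate block 0 were called higher and 2 lower, Fgf21 and Ugt1a6b. Fgf21, a secreted metabolic hormone, was at 153, 376 and 183 normalized counts in EtOH replicates 1, 2 and 3 and at 33.1, 34.3 and 27.7 in the TAM libraries, without overlap. The difference was −2.76 ± 0.37 (SE) on the log2 scale, at adjusted p = 0.0524 by limma, or ± 0.32 and 0.0345 with pairs blocked. Ugt1a6b, a glucuronosyltransferase, was at 546, 336 and 569.9 against 211, 64.5 and 180.5 normalized counts, which differ by −1.79 ± 0.47 (SE) on the log2 scale, at adjusted p = 0.194 by limma, or ± 0.25 and 0.0469 with pairs blocked. Genes of the Ugt1a cluster share exons, so reads may be split among them. Nqo1, the quinone reductase of the classical AhR gene battery, was chosen for naming after its values were seen. It was at 195, 427 and 228 normalized counts in the EtOH libraries and at 486, 612 and 452 in the TAM libraries, a log2 difference of 0.94 ± 0.32 (SE), at adjusted p = 0.274 by limma, or 0.135 with pairs blocked. Pdgfa and Selenbp1, likewise outside the naming rule, differed more and in opposite directions, without overlap. Pdgfa was at 78.9, 40.0 and 69.0 against 131, 349 and 147 (log2 fold change 1.63, limma adjusted p = 0.207, or 0.209 with pairs blocked). Selenbp1 was at 101, 1530 and 186 against 48.7, 17.6 and 65.1 (−2.97, limma adjusted p = 0.274, or 0.263 with pairs blocked).

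Enzymes that make or remove AhR ligands and steroids showed no call. Of 27 listed, 24 were in the table and 13 were tested, with 0 called without and 0 with the block. Before adjustment 1 was lower at p under 0.05 without the block, 2 were lower with it, and 0 were higher in either. Their median log2 fold change was 0.31, with 9 above 0 and 4 below, and it was 0.04 without EtOH replicate 2. The largest differences were those of Hsd17b1, which reduces estrone to estradiol (log2 fold change −1.84, limma adjusted p = 0.188, at 21.3, 22.9 and 29.5 against 7.97, 5.85 and 4.72 normalized counts), Aldh1a1, a retinal dehydrogenase (−1.44, adjusted p = 0.437), and Ephx2, the soluble epoxide hydrolase (0.72, adjusted p = 0.455). Hsd17b1 passed the filter on low values through its EtOH libraries alone, so a lower TAM level was in part required for it.

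The HIF targets had a median log2 fold change of −0.53, with 3 of 24 above 0 and 21 below, and 0 were called without or with the block. Before adjustment 0 passed p under 0.05 without the block, and 2 were lower with it. Without EtOH replicate 2 the median was 0.18. The 3 largest differences were those of Ero1l, Ddit4 and Egln3. Ero1l, an oxidase of the endoplasmic reticulum, was at 3559, 60574 and 4587 normalized counts in EtOH replicates 1, 2 and 3 and at 1836, 2430 and 2155 in the TAM libraries (log2 fold change −2.23, limma adjusted p = 0.394). Its values in the TAM libraries were below all EtOH values, the high one included. Ddit4, a stress-induced inhibitor of mTOR, had a log2 fold change of −1.31 (adjusted p = 0.576) and Egln3 one of −1.21 (adjusted p = 0.761). Without EtOH replicate 2 the values were −0.93 for Ero1l, −0.18 for Ddit4 and 0.68 for Egln3.

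NRF2 is the oxidative stress factor that shares targets such as Nqo1 with AhR. Of its 20 targets tested, 15 were above 0 and 5 below, with a median log2 fold change of 0.27, and 0 were called without the block. The median was 0.42 without EtOH replicate 2 and 0.11 without EtOH replicate 3. Before adjustment 5 were higher and 1 lower at p under 0.05, or 8 and 1 with the block. With the replicate block Mgst1 alone was called. Mgst1, a microsomal glutathione transferase, was at 106, 33.3 and 57.4 normalized counts in EtOH replicates 1, 2 and 3 and at 944, 194 and 494 in the TAM libraries. Like Cyp1b1 it was highest in replicate 1 of each group. Mgst1 differed by 2.91 ± 0.63 (SE) on the log2 scale, at adjusted p = 0.146 by limma, or ± 0.23 and 0.0180 with pairs blocked.

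The genes whose levels followed Cyp1b1 most closely over the 6 libraries were Grb14, Dio2, Lama5, Mark1 and Fas. Pearson's r of log2(normalized counts + 1) with Cyp1b1 was 0.996 for Grb14, 0.996 for Dio2, 0.988 for Lama5, 0.986 for Mark1 and 0.985 for Fas. These are descriptions over 6 points in 2 groups, and 207 of the 11872 other genes had an r over 0.9. Grb14, an adaptor that inhibits the insulin receptor, was at 526, 391 and 147 normalized counts in EtOH replicates 1, 2 and 3 and at 1860.1, 1074 and 1164 in the TAM libraries. Dio2, the deiodinase that activates thyroid hormone, was at 7.5, 1.85 and 0 against 70.5, 19.3 and 21.9 normalized counts. It passed the filter on low values through its TAM libraries alone, so a higher TAM level was in part required for it. Lama5, a laminin chain, was at 701, 467 and 176 against 2701, 1113 and 997, Mark1, a kinase of microtubule regulators, at 1027, 669 and 530.5 against 2087, 1581 and 1436, and Fas, a death receptor, at 98.4, 89.6 and 35.3 against 276, 182 and 217. The order of the libraries in these genes follows from how they were chosen.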

How the data were processed

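Poly(A) RNA of 6 samples was sequenced, 3 TAM and 3 EtOH. The authors mapped reads to mm9 with TopHat, assigned them to RefSeq genes with htseq-count and tested them with edgeR and TMM normalization; versions are not given in the sources used here. What they deposited is a signal per gene and library, normalized counts that are mostly not whole and whose scaling the file does not state, so edgeR was not run here. Read totals of 5 libraries are unknown, and the precision is that of 3 libraries against 3. Genes with at least 1 c.p.m. (16.2 normalized counts) in at least 3 libraries entered limma 3.58.1 (R 4.3.3) as log2(value + 1), all 11877 in 1 model with an intensity-dependent prior, and Benjamini-Hochberg adjustment followed. The fit was tested on simulated data with a set spread and a set size of change. That does not show how it does at the spread of these libraries. The replicate numbers come from the labels. Once group means were subtracted, libraries of the same number correlated across genes with r of 0.241, 0.287 and 0.422, and those of other pairs with r from −0.310 to 0.037, so the number was also fitted as a block.

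Exon bases and strands came from GENCODE M1, in which 22148 of 22162 genes were found, 15782 of them with the same start and end. Upstream windows were cut from the NCBIM37 (mm9) genome at the start sites of the authors' gene coordinates, and promoters came from RefSeq. Poisson intervals were computed with scipy 1.17.1, and figures drawn with matplotlib 3.10.9. The members, the lists and the naming rule were chosen with earlier results of these data known. The rule names the members, Cdkn1b, every gene of a list called in either fit, otherwise the 3 tested genes with the largest difference, the 5 P450 genes with the highest mean level per kb, and the 5 genes most like Cyp1b1. Alternatives were the replicate block, equal library sums, median-ratio scaling, pseudocounts of 0.1 and 10, no filter, a minimum of 10 in each library, and each library left out.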

Additional observations from a re-analysis of the deposited data

How the results depend on the processing

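The log2 fold changes of Cyp1b1, Arnt and Tiparp kept their sign under every alternative that gave a value, while those of Ahr and Ahrr did not. The replicate block leaves a log2 fold change as it is, since each replicate number is in both groups. Ahr turned from −0.05 to 0.06 with equal library sums and to 0.69 without EtOH replicate 2, and Ahrr from −0.23 to 0.64 without TAM replicate 3. Scaling to equal sums shifts the median of all genes by 0.11 on the log2 scale. A minimum of 10 in each library left Cyp1b1 and Ahrr without a value, and Ahrr had none without EtOH replicate 2, TAM replicate 1 or TAM replicate 2. Over all genes, 20 were called higher and 9 lower; with the replicate block these were 119 and 73, without the filter 12 and 5, and with that minimum 14 and 4. With a library left out, between 0 and 6 were called higher and between 0 and 9 lower. With the replicate block the genes called went from 0 to 2 among the AhR complex and PAS partners, from 0 to 2 among the other AhR targets and from 0 to 1 among the NRF2 targets, and with equal library sums to 1 among the AhR targets. The median log2 fold change of the ligand and steroid enzymes was 0.42 with equal library sums and between 0.0372 and 0.31 with a library left out, and that of the AhR complex between 0.0587 and 0.18. Counting error is known for TAM replicate 2 alone.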
